A study of Mus musculus with 7 samples.

Results

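The genes that mark quiescent hepatic stellate cells (HSCs) were examined in mouse precision-cut liver slices (PCLS) cultured with or without valproic acid sodium salt (VPA). The list was set by gene name, with no threshold on a measured value: Lrat, Reln, Hgf, Cygb, Ecm1, Colec11, Hand2, Lhx2 and Pparg, which are 9 of the 55487 genes in the count table. Of those 55487 genes, 26086 had a count in any library and 10876 passed edgeR's filter on low counts and were tested, among them 8 of the 9 members. PCLS are thin discs of fresh liver that keep the cell types of the tissue together in culture. All slices came from healthy adult male BALB/c mice with no genetic change, and all were collected on day 3 of culture. The control group (CTR) was 3 libraries from slices in medium without VPA, and the VPA group was 4 libraries from slices kept in the same medium with 2.5 mM VPA. VPA is a branched short-chain fatty acid used against epilepsy that also inhibits histone deacetylases. The sample titles carry slice culture numbers from 71 to 74 without saying what such a number stands for. Cultures 71, 72 and 74 had 1 CTR and 1 VPA library each, and culture 73 had VPA replicate 1 alone. The libraries held whole slices, so fewer HSCs and less RNA per HSC cannot be told apart. No uncultured liver was analysed here, so the values compare cultured slices with each other.

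HSCs are the pericytes of the liver sinusoid and lie between hepatocytes and endothelium. In the quiescent state they store vitamin A as retinyl esters in lipid droplets and secrete growth factors and matrix regulators. After injury, and in culture, they become myofibroblast-like cells that lose their droplets, turn down the quiescent programme and produce collagen. The study added VPA to slow this activation in slices, which makes the level of the quiescent genes with and without VPA the comparison of interest.

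In the CTR group, 1743675 to 4773750 counts fell on genes per library, and in the VPA group 1400887 to 3102450. Levels are given as CPM, which are counts scaled to a common library size with edgeR's TMM factors. The libraries read the 3′ end of each transcript, so counts do not grow with gene length and CPM can be compared between genes. For a gene with no count, a level of up to 3 counts remains possible, between 0.591 and 2.41 CPM in these libraries, from counting error alone. By the study's methods a biological repeat is a liver from a different mouse. The labels do not tie the libraries to mice, and p-values measure the spread between these libraries. In edgeR's quasi-likelihood test with adjustment over all tested genes, 1 gene (0.00919%) was called higher and 0 genes (0%) were called lower with VPA at the 0.05 threshold. Without adjustment, the same threshold was passed by 3.65% of genes in the higher and by 4.62% in the lower direction. DESeq2 called 39 genes higher and 115 lower at the same adjusted threshold.

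The stretch before the start of transcription is shown for Lrat, the member with the most negative fold change, and for Reln and Ecm1, the members with the smallest standard errors, since VPA acts on histones and so on chromatin at promoters. Each is the 250 bases before the RefSeq start on GRCm38.p6, read 5′ to 3′ on the strand of the gene. The Lrat window is chr3:82903975-82904224 on the minus strand, the Reln window chr5:22344706-22344955 on the minus strand and the Ecm1 window chr3:95739570-95739819 on the minus strand. Capitals mark GGGCGG or its reverse complement CCGCCC, the GC box bound by SP-family factors, and TATAAA, the TATA motif searched on both strands.
Lrat: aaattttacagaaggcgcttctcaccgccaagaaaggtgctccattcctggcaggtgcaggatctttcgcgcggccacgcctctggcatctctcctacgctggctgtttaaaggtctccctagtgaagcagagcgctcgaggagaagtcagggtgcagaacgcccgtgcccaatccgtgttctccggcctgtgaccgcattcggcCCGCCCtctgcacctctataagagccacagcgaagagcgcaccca
Reln: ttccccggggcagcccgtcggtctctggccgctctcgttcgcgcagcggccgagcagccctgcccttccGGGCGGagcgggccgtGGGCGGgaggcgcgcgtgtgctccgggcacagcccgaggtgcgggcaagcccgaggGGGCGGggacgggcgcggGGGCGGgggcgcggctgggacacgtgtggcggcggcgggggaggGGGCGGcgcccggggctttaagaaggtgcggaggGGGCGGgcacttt
Ecm1: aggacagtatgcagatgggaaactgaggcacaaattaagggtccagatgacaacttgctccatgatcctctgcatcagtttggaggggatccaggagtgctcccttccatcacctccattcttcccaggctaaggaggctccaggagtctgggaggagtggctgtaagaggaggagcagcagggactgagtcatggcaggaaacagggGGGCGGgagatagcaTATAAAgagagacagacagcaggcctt
The 3 windows differed in composition. The Reln window held 6 GC boxes and 37 CpG dinucleotides at 80.0% GC. At least as many GC boxes were held by 0.886% of the 32851 windows in the RefSeq table. The Lrat window held 1 GC box and 18 CpG dinucleotides at 59.2% GC. The Ecm1 window held 1 GC box, 1 TATA motif and 1 CpG dinucleotide at 54.0% GC. Over all windows, 32.7% held a GC box and 12.4% a TATA motif, the median number of CpG dinucleotides was 6 and the median GC content 52.4%. Of the 9 members, 8 had a window in the table, with 12 windows between them, of which 7 held a GC box and 2 a TATA motif. Cygb was the member not matched. These matches describe the letters of the windows and do not show that a factor is bound there.

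No difference in the quiescent genes was detectable between CTR and VPA slices. None of the 8 tested members passed the test, and at an unadjusted p under 0.05 the count was also 0 in edgeR and 0 in DESeq2. Of the 8, 3 had a positive and 5 a negative log2 fold change, with a median of −0.13, against a median of −0.06 and 4982 positive and 5894 negative values over all tested genes. In no member did every VPA library lie above or below every CTR library, whereas over all genes 4.44% lay above and 7.41% below. The intervals were wide, and for 4 members, Hgf, Colec11, Hand2 and Lhx2, they ran from at least a halving to at least a doubling of the level. The plot of member levels shows the 7 libraries of each gene, and the plot of fold changes the estimate and its interval.

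**Figure D1:**
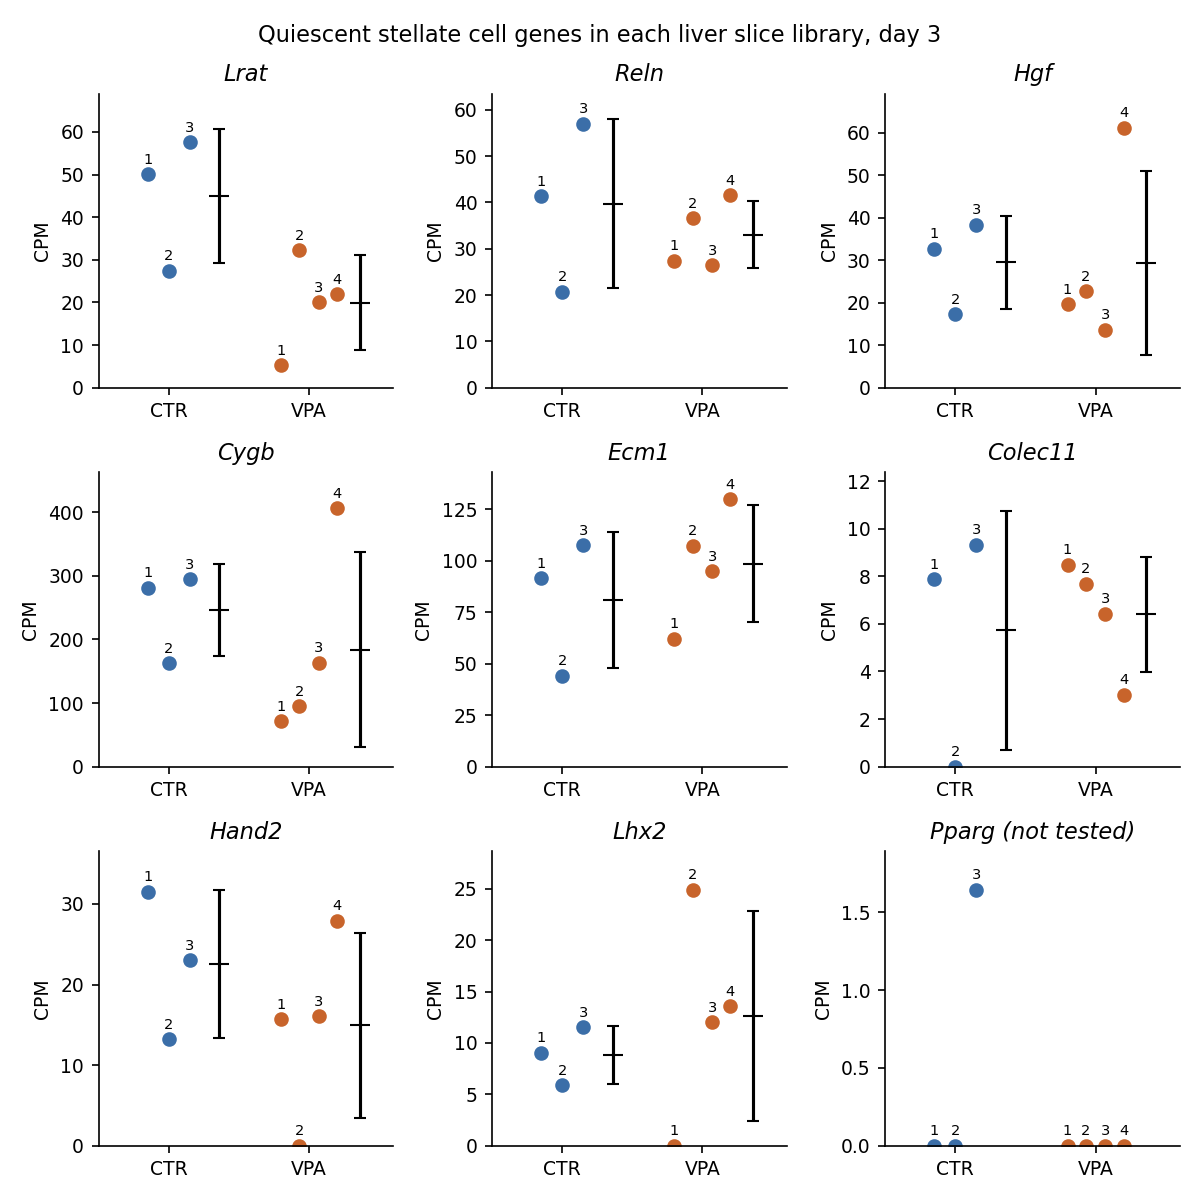
CPM (linear axis from 0, its own scale for each gene) of the 9 quiescent HSC genes in each library, with the replicate number above the point and the mean and SD beside each group, except for Pparg. CTR replicate 2 is the lowest CTR library of every tested gene, and 3 of the 4 VPA libraries of Lrat lie below all its CTR libraries. Colec11, Hand2 and Lhx2 each have 1 library at 0.

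The gene that defines the vitamin A store, Lrat, had the lowest estimate of the members. Lrat encodes lecithin retinol acyltransferase, which esterifies retinol for storage and is found in the liver mainly in HSCs. It lies at chr3:82892579-82903973 on the minus strand (GRCm38, GENCODE M21). In CTR replicates 1 to 3 Lrat stood at 50.04, 27.4 and 57.6 CPM, from 127, 139 and 105 counts. With VPA it stood at 5.22, 32.3, 20.1 and 21.9 CPM in replicates 1 to 4, from 8, 105, 25 and 29 counts. VPA replicates 1, 3 and 4 were below all CTR libraries, and VPA replicate 2 was above CTR replicate 2, so the groups overlapped by this pair. The means were 45.0 ± 15.7 CPM (SD, n = 3) in CTR and 19.9 ± 11.1 CPM (SD, n = 4) in VPA slices. Lrat had a log2 fold change of −1.16 (SE 0.554, adjusted p = 0.650 in edgeR), with a 95% interval from −2.45 to 0.13. On the linear scale the estimate was 0.447 times the CTR level, with an interval from 0.183 to 1.09. By unadjusted p the gene ranked 1188 among the 10876 genes. The estimate ranged from −1.51 to −0.84 when each library was left out in turn and was negative in all 7 of these fits.

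**Figure D2:**
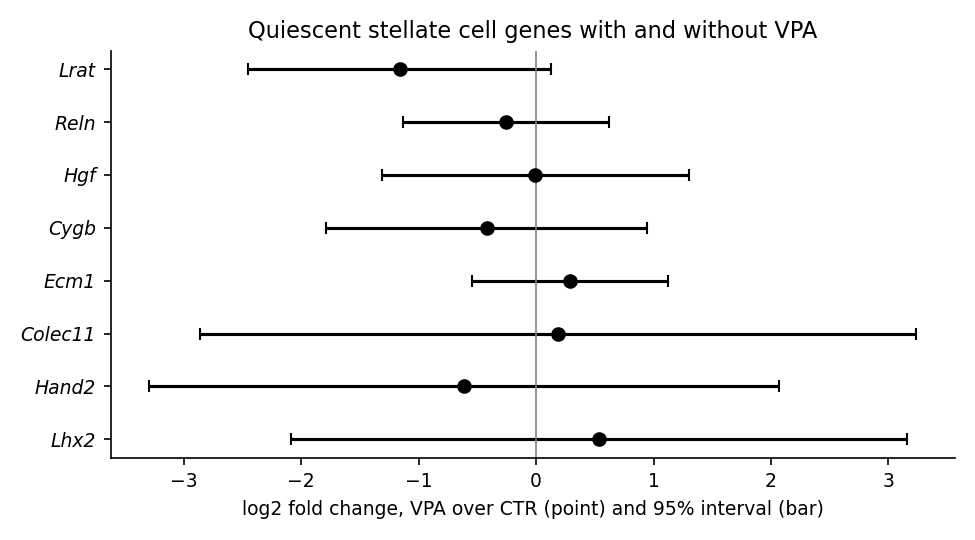
Log2 fold change of VPA over CTR from edgeR (x axis, points) with its 95% interval (bars) for the 8 tested quiescent HSC genes. All 8 intervals include 0; that of Lrat runs from −2.45 to 0.13.

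Among the secreted products, Reln, Hgf and Ecm1 were well above the detection limit in every library. Reln encodes reelin, a large extracellular glycoprotein that HSCs make in the liver, and spans chr5:21884454-22344702 on the minus strand. It stood at 41.4, 20.7 and 57.0 CPM in CTR and at 27.4, 36.6, 26.5 and 41.5 CPM in VPA slices. All 4 VPA libraries lay inside the CTR range. Its log2 fold change was −0.26 (SE 0.375, adjusted p = 0.945 in edgeR), with a 95% interval from −1.13 to 0.62.

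Hgf encodes hepatocyte growth factor, the ligand of the receptor Met on hepatocytes, and lies at chr5:16553495-16620152 on the plus strand. It stood at 32.7, 17.3 and 38.4 CPM in CTR, and at 19.6, 22.8, 13.6 and 61.2 CPM in VPA slices. VPA replicates 3 and 4 were the lowest and the highest of all 7 libraries. The group means were 29.5 ± 10.9 CPM (SD, n = 3) and 29.3 ± 21.6 CPM (SD, n = 4). The log2 fold change was −0.0067 with a 95% interval from −1.31 to 1.30, so a fold change as large as 2.46 in one direction or 0.403 in the other was not resolved. Hgf shares 484 exon bases with the unclassified transcript Gm43489 on the same strand, to which 237 counts were assigned against 443 for Hgf, so its value is uncertain.

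Ecm1 encodes extracellular matrix protein 1, a secreted protein that holds latent TGF-beta inactive, and lies at chr3:95734147-95739569 on the minus strand. It stood at 91.4, 44.2 and 107 CPM in CTR and at 62.0, 107, 94.7 and 129.9 CPM in VPA slices. VPA replicate 4 was the highest library and CTR replicate 2 the lowest. The mean was 81.0 ± 32.9 CPM (SD, n = 3) in CTR and 98.5 ± 28.3 CPM (SD, n = 4) in VPA slices. Ecm1 had a log2 fold change of 0.29 (SE 0.357, adjusted p = 0.937 in edgeR) and a 95% interval from −0.54 to 1.12, the narrowest of the 8. Without CTR replicate 2 the estimate was −0.02.

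Colec11 encodes collectin-11, a soluble lectin that starts the lectin pathway of complement, and lies at chr12:28594173-28623377 on the minus strand. It had 20, 0 and 17 counts in CTR and 13, 25, 8 and 4 counts in VPA slices, or 7.88, 0 and 9.32 CPM against 8.49, 7.69, 6.42 and 3.02 CPM. The library at 0 was the deepest of the series, in which 43.6 counts would match the other CTR libraries. The log2 fold change of 0.19 had an SE of 1.312, and it was −0.43 without that library.

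Cygb was the most abundant member. It encodes cytoglobin, a globin of HSCs that binds oxygen and handles nitric oxide, and lies at chr11:116645595-116654313 on the minus strand. In CTR it stood at 282, 162 and 294 CPM and in VPA slices at 71.2, 95.3, 164 and 406 CPM. The VPA libraries thus spread on both sides of the CTR range, with replicates 1 and 2 below it, replicate 3 just inside it and replicate 4 above it. The mean was 246 ± 72.8 CPM (SD, n = 3) in CTR and 184 ± 153 CPM (SD, n = 4) in VPA slices. The log2 fold change was −0.42 (SE 0.584, adjusted p = 0.943 in edgeR), and it ranged from −1.17 to −0.15 when each library was left out in turn. Macrophage markers also peaked in VPA replicate 4, with a summed level of 614 CPM against 346 to 377 CPM in the other VPA libraries, and their part in the Cygb value was not tested.

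The transcription factors Hand2, Lhx2 and Pparg were counted at low levels. Hand2, a basic helix-loop-helix factor of the HSC lineage, lies at chr8:57320983-57324633 on the plus strand. It stood at 31.5, 13.2 and 23.0 CPM in CTR, and at 15.7, 0, 16.1 and 27.9 CPM in VPA slices. VPA replicate 2 had no count where 64.7 would match the other VPA libraries, and the remaining VPA libraries lay inside the CTR range. The log2 fold change was −0.61 (SE 1.150, adjusted p = 0.956 in edgeR), and it was −0.17 without VPA replicate 2 and −1.13 without VPA replicate 4. Hand2 shares 461 exon bases with Hand2os1 on the opposite strand, which held 383 counts against 270 for Hand2, and the strand setting of the counting is not given in the sources used here, so reads of the pair may be mixed.

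Lhx2, a LIM homeobox factor that holds HSCs in the quiescent state, lies at chr2:38339281-38369733 on the plus strand. It had 23, 30 and 21 counts in CTR and 0, 81, 15 and 18 counts in VPA slices. In CPM the values were 9.06, 5.91 and 11.5 in CTR and 0, 24.9, 12.04 and 13.6 in VPA slices. VPA replicate 1 was thus the lowest and the other VPA libraries were above all CTR libraries, with a log2 fold change of 0.53 (SE 1.127, adjusted p = 0.961 in edgeR). In VPA replicate 1, 25.8 counts would match the other VPA libraries. Without VPA replicate 2 the estimate was −0.04.

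Pparg, the nuclear receptor that drives lipid storage genes, lies at chr6:115360951-115490399 on the plus strand. It had 3 counts in CTR replicate 3, which is 1.64 CPM, and 0 in each of the other 6 libraries. Both groups were at or under the limit of detection, so no fold is given.

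The zeros in Colec11, Hand2 and Lhx2 stood in a wider pattern. Among tested genes for which at least 20 counts would match the other libraries of the group, 1.43 to 2.60% had no count in a given CTR library and 3.22 to 8.46% in a given VPA library. VPA replicates 1 and 2, the libraries in which Lhx2 and Hand2 were at 0, had the highest shares, 8.46% and 5.15%. In each library 12 to 65 such genes had 1 to 3 counts, fewer than the 134 to 660 with none. How a well-counted gene comes to have no count at all was not tested.

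Within each group the members often shared the same low library. CTR replicate 2 was the lowest CTR library for 8 of 8 members. Over all tested genes with a single lowest CTR library, CTR replicate 2 was the lowest for 37.6%. The low level was not particular to the members. Other HSC lineage genes, described below, summed to 405 CPM in CTR replicate 2 against 675 and 629 CPM in CTR replicates 1 and 3. Genes of activated HSCs summed to 4418 CPM in CTR replicate 2 against 7332 and 6746 CPM in CTR replicates 1 and 3. In the VPA group replicate 1 was the lowest for 4 of 8 members, against 29.9% of all tested genes with a single lowest VPA library. The summed level of the members was 546, 291 and 600 CPM in CTR and 210, 327, 353 and 705 CPM in VPA slices, so the VPA libraries ranged from below the lowest to above the highest CTR library. Without Cygb the sums were 264, 129 and 306 CPM in CTR and 138, 232, 189 and 299 CPM in VPA slices, all 4 of them inside the CTR range. Members measured in the same library share its depth and composition, and the plot of centred levels shows them side by side.

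**Figure D3:**
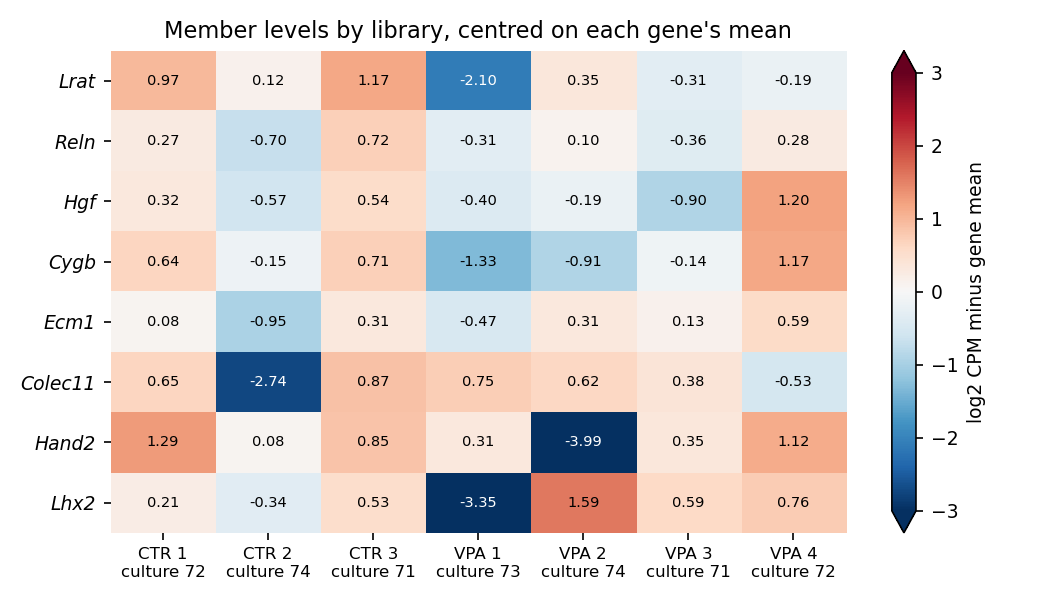
Log2 CPM (prior count of 2) of each tested member minus its mean over the 7 libraries (colour and number), with libraries in columns by group, replicate and slice culture. CTR replicate 2 is below CTR replicates 1 and 3 in every row, Lrat is lowest in VPA replicate 1 at −2.10, and the dark cells of Colec11, Hand2 and Lhx2 are libraries at 0.

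Within slice cultures the direction differed from culture to culture. In culture 71, 7 of 8 members were lower in the VPA library than in the CTR library and 1 was higher, with a median log2 difference of −0.67. In culture 72, 3 were lower and 5 higher, with a median of 0.25, and in culture 74, 2 were lower and 6 higher, with a median of 0.59. The median over all tested genes was −0.03, −0.06 and −0.05 in the same cultures. Lrat stood at 57.6 CPM without and 20.1 CPM with VPA in culture 71, at 50.04 and 21.9 CPM in culture 72 and at 27.4 and 32.3 CPM in culture 74. Ecm1 stood at 107 and 94.7 CPM in culture 71, at 91.4 and 129.9 CPM in culture 72 and at 44.2 and 107 CPM in culture 74. Each culture has 1 library per condition, so these differences have no replicate check of their own.

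To set the members against other genes of the same cells, counts were expressed per 100 counts of 20 other HSC lineage genes, such as Pdgfra, Rgs5, Des and Nes, in the same library. Lrat stood at 7.42, 6.77 and 9.15 per 100 lineage counts in CTR and at 1.41, 5.59, 3.93 and 3.29 in VPA slices. Every VPA library was below every CTR library on this scale, as were 4.67% of all tested genes, while 2.19% were above. The mean log2 ratio with a pseudocount of 0.5 was lower by 1.25 with VPA (−1.25, two-sided exact permutation test over 35 splits, p = 0.0571, where 0.0286 is the smallest p possible). Lrat was the 1 member of 8 given this test, on a list chosen with earlier results of these data known, and the p is not adjusted for that choice. The difference ranged from −1.51 to −0.88 when each library was left out in turn.

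The other members overlapped between groups on the lineage scale. Reln stood at 6.13, 5.11 and 9.06 per 100 lineage counts in CTR and at 7.39, 6.34, 5.19 and 6.24 in VPA slices. Ecm1 stood at 13.6, 10.9 and 17.1 in CTR and at 16.7, 18.6, 18.6 and 19.5 in VPA slices, where VPA replicate 1 alone lay below the highest CTR library. Cygb stood within 40.1 to 46.8 in CTR and spread from 16.5 to 61.0 in VPA slices. The lineage counts behind these ratios were 1148 to 2053 in CTR and 568 to 1878 in VPA libraries.

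**Figure D4:**
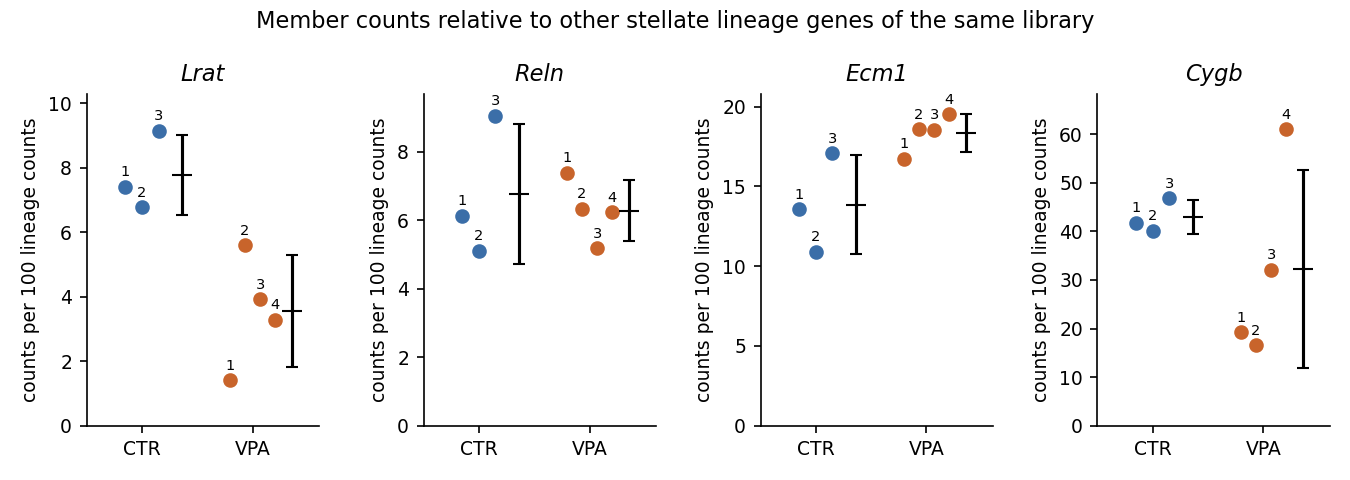
Counts of Lrat, Reln, Ecm1 and Cygb per 100 counts of 20 other HSC lineage genes in each library (y axis, linear from 0), with the replicate number above the point and the mean and SD beside each group. The VPA points of Lrat, 1.41 to 5.59, lie below the CTR points, 6.77 to 9.15, and the groups overlap in the other panels.

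Of the 20 lineage genes themselves, 15 passed the filter and were tested gene by gene, with no test of the list. The fold changes were positive for 6 and negative for 9, with a median log2 fold change of −0.27. None passed the test in edgeR, and 0 had an unadjusted p under 0.05. The most abundant were Rgs5, a pericyte regulator of G-protein signalling (79.0 ± 43.2 CPM in CTR, 90.7 ± 24.9 CPM in VPA slices), the chemokine gene Cxcl12 (58.4 ± 24.9 and 78.4 ± 15.9 CPM) and the intermediate filament gene Nes (76.9 ± 5.56 and 58.2 ± 7.79 CPM). Nes was the 1 gene of the list in which every VPA library was below every CTR library, with a log2 fold change of −0.40 (adjusted p = 0.611 in edgeR). Des, the gene of desmin, stood at 23.7 to 30.7 CPM in CTR and at 0, 28.9, 0 and 29.5 CPM in VPA replicates 1 to 4. Pdgfrb, the PDGF receptor of HSCs, stood at 16.4 to 21.9 CPM in CTR and at 9.79, 27.1, 0 and 0 CPM in VPA slices. Gfap and Angptl6 had no count in any library, and Tcf21 had 1 count in all, in VPA replicate 1. The summed level of the list was 405 to 675 CPM in CTR and 371 to 666 CPM in VPA slices.

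The genes of activated HSCs were counted beside them. Of 25 genes, 23 were tested, of which 4 had positive and 19 negative fold changes with a median log2 fold change of −0.59. None passed the adjusted threshold in edgeR. Unadjusted p-values were under 0.05 for 7 lower and 0 higher genes, against 4.62% lower and 3.65% higher of all tested genes. In 6 every VPA library was below every CTR library, as in 7.41% of all tested genes. With DESeq2, the paper reported Col1a1 among the genes lower with VPA, and it found an activated HSC signature enriched in control slices. DESeq2 results for single genes of this list are not reported here. Col1a1, the gene of a collagen I chain, stood at 723 ± 218 CPM (SD, n = 3) in CTR against 229 ± 38.9 CPM (SD, n = 4) in VPA slices, with a log2 fold change of −1.66 (SE 0.239, adjusted p = 0.112 in edgeR). Sparc and Vim had log2 fold changes of −1.04 and −1.08 (adjusted p = 0.295 and 0.193), while Fn1, the gene of fibronectin, had 0.21 (adjusted p = 0.955). Acta2, the gene of smooth muscle actin, stood at 156 ± 30.6 CPM in CTR against 113 ± 49.0 CPM in VPA slices, with overlapping groups. The difference between the medians of the quiescent and activated lists, −0.13 and −0.59, was not tested.

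**Figure D5:**
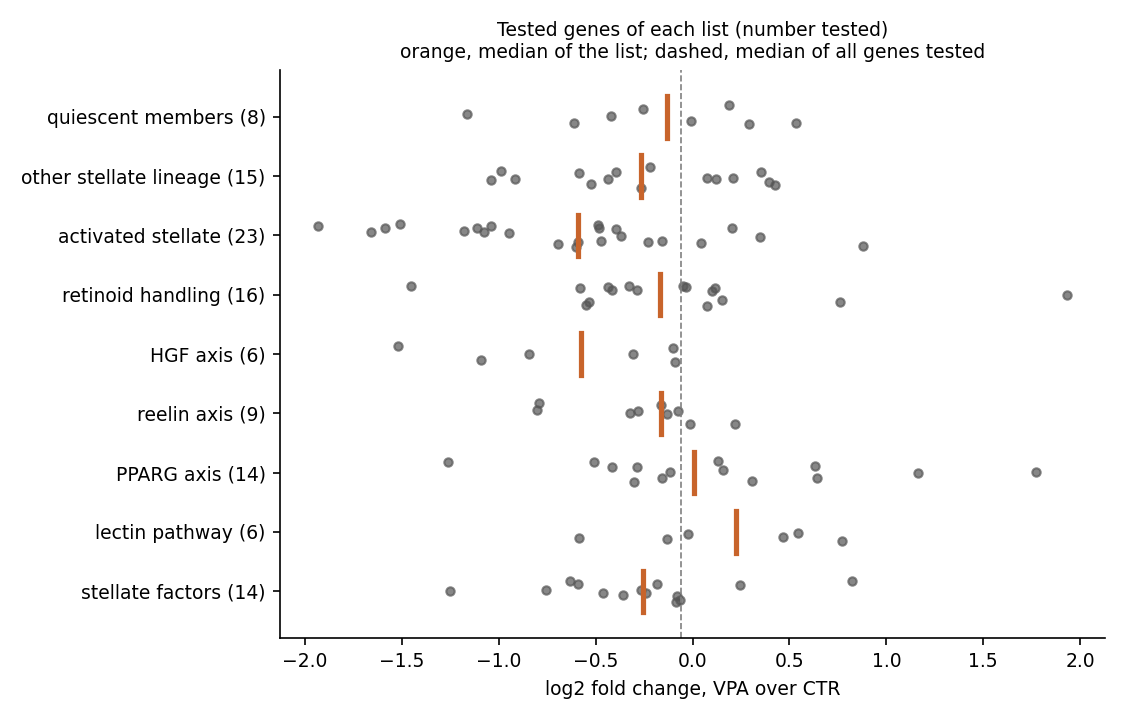
Log2 fold change of VPA over CTR (x axis) for each tested gene (points, spread vertically at random) of the quiescent members and related lists. Each list drawn is named on the y axis with its number of tested genes in brackets. The lists of portal and central HSC markers are not drawn. The orange bars mark the medians of the lists drawn, from −0.59 in activated HSC genes to 0.22 in the lectin pathway. The dashed line marks the median of all tested genes, −0.06.

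Retinoid handling, the pathway around Lrat, was described with 27 genes, of which 16 were tested, 6 with positive and 10 with negative fold changes and a median of −0.17. None passed the adjusted threshold in edgeR, and an unadjusted p under 0.05 was found for 1 higher and 0 lower genes. Plin2, a coat protein of lipid droplets in hepatocytes and HSCs, stood at 1912 ± 347 CPM in CTR against 2121 ± 608 CPM in VPA slices. Rbp4, the retinol carrier of plasma, stood at 484 ± 214 and 363 ± 86.6 CPM, and Adh1, a retinol-oxidizing dehydrogenase of hepatocytes, at 164 ± 117 and 130.5 ± 26.8 CPM. The gene with the low unadjusted p was Rdh11, a retinal reductase, at 36.1 ± 2.24 and 61.2 ± 20.8 CPM (log2 fold change 0.76, adjusted p = 0.553 in edgeR), named after its value was seen. Stra6, Aldh1a2, Aldh1a3, Crabp1, Crabp2 and Pnpla3 had no count in any library.

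Around Hgf, 6 of 12 genes of its receptor, activating proteases, protease inhibitors and adaptors were tested, all 6 with negative fold changes and a median of −0.58, though 0 passed the adjusted threshold in edgeR and 1 had an unadjusted p under 0.05. That gene was Met, the HGF receptor, at 40.6, 38.2 and 72.9 CPM in CTR and at 15.7, 20.6, 36.9 and 21.9 CPM in VPA slices. Every VPA library of Met was below every CTR library, with a log2 fold change of −1.09 (SE 0.379, adjusted p = 0.514 in edgeR). Hgfac, the HGF activator made by hepatocytes, stood at 45.9 ± 30.3 and 16.1 ± 13.8 CPM with overlapping groups, and the adaptor Grb2 at 111 ± 25.9 and 104 ± 23.7 CPM.

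Around Reln, 9 of 10 genes of the reelin receptors and transducers were tested, 1 with a positive and 8 with negative fold changes and a median of −0.16, and 0 reached an unadjusted p under 0.05 in edgeR. Of its receptors, Lrp8 stood at 11.5 ± 3.66 CPM in CTR against 11.0 ± 9.67 CPM in VPA slices, and Vldlr was not tested, at 3.12 ± 2.83 and 3.35 ± 4.55 CPM. Itgb1, an integrin subunit, stood at 329 ± 64.8 and 294 ± 23.3 CPM, Pafah1b1 at 238 ± 19.6 and 197 ± 37.7 CPM and the adaptor Crkl at 50.6 ± 18.2 and 50.3 ± 4.55 CPM.

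Around Colec11, 6 of 10 lectin pathway genes were tested, 3 in each direction with a median of 0.22, and 0 reached an unadjusted p under 0.05 in edgeR. Masp1, the serine protease that partners collectins, stood at 125 ± 27.1 CPM in CTR against 123 ± 50.3 CPM in VPA slices. The hepatocyte lectin Mbl2 stood at 68.1 ± 15.1 and 98.9 ± 71.3 CPM and the complement gene C4b at 77.9 ± 19.0 and 71.3 ± 37.3 CPM. Colec10, the partner chain of Colec11, was not tested, at 3.94, 0 and 1.64 CPM in CTR and at 0, 2.77, 8.83 and 9.06 CPM in VPA slices.

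Although Pparg itself was near 0, its partners and targets were measured. Of 20 genes, 14 were tested, 7 in each direction with a median of 0.01, and 0 passed the adjusted threshold in edgeR while 2 higher genes and 1 lower gene had an unadjusted p under 0.05. Ncor1, a corepressor that recruits histone deacetylases to nuclear receptors, stood at 461, 451 and 465 CPM in CTR and at 319, 285, 323 and 367 CPM in VPA slices. All VPA libraries of Ncor1 were below all CTR libraries, with a log2 fold change of −0.51 (SE 0.130, adjusted p = 0.336 in edgeR). The receptor partner Rxra stood at 66.2 ± 4.61 and 54.4 ± 6.08 CPM, also without overlap (adjusted p = 0.760). The coactivator Med1 stood at 119 ± 23.0 and 107 ± 51.3 CPM. The 2 higher genes with a low unadjusted p were the coactivators Ppargc1a, at 6.03 ± 3.83 and 20.4 ± 3.05 CPM without overlap (adjusted p = 0.447), and Ncoa1, at 16.1 ± 1.20 and 36.1 ± 15.0 CPM with its lowest library in VPA replicate 4 (adjusted p = 0.546), both named after their values were seen. Plin1, Cidec, Mogat1 and Adipoq, targets of Pparg in fat cells, had no count in any library.

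Of 18 other transcription factors and cofactors of HSCs, 14 were tested, 2 with positive and 12 with negative fold changes and a median of −0.25, and 0 passed the adjusted threshold in edgeR while 1 was lower at an unadjusted p under 0.05. The most abundant were Klf6 (354 ± 104 CPM in CTR, 334 ± 77.2 CPM in VPA slices), Nr2f2 (330 ± 102 and 279 ± 121 CPM) and Tcf4 (261 ± 74.9 and 204 ± 41.8 CPM), all with overlapping groups. Gata4, a factor that restrains HSC activation, stood at 26.4, 36.1 and 0 CPM in CTR and at 35.3, 0, 0 and 0 CPM in VPA slices. Its relative Gata6 stood at 26.8, 11.0 and 27.4 CPM in CTR and at 37.2, 41.5, 40.9 and 33.2 CPM in VPA slices, with every VPA library above every CTR library (log2 fold change 0.82, adjusted p = 0.612 in edgeR). The gene with the low unadjusted p was Ets1, at 78.7 ± 9.82 and 50.5 ± 14.6 CPM with every VPA library below every CTR library (log2 fold change −0.63, adjusted p = 0.575 in edgeR). Gata6 and Ets1 were named after their values were seen.

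HSCs near portal and near central veins differ in their markers. Of 6 portal markers, 5 were tested, 1 with a positive and 4 with negative fold changes and a median of −0.72. Of 6 central markers, 4 were tested, 1 with a positive and 3 with negative fold changes and a median of −1.26. None passed the adjusted threshold in edgeR, and 1 portal and 2 central markers were lower at an unadjusted p under 0.05. The portal marker Igfbp3 stood at 29.2, 9.46 and 35.1 CPM in CTR and at 4.57, 8.92, 4.82 and 0 CPM in VPA slices (log2 fold change −2.37, adjusted p = 0.575), and Itgb3 at 29.0 ± 8.32 and 17.5 ± 6.17 CPM. The central markers Sox4 and Spon2 had log2 fold changes of −0.79 and −1.72 (adjusted p = 0.288 and 0.415 in edgeR). In both, every VPA library was below every CTR library, as in 7.41% of all tested genes. Sox4 stood at 561 ± 125 and 324 ± 20.5 CPM in these whole slices, and the cells it came from were not tested. Rspo3, a central marker that amplifies Wnt signalling to hepatocytes, stood at 58.6 ± 15.5 and 89.5 ± 52.9 CPM.

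Other cell types of the slice varied between libraries beside the members, and their part in the members' values was not tested. Of 12 hepatocyte markers, 11 had a count, and their summed level was 3588 to 7746 CPM in CTR and 2670 to 8515 CPM in VPA libraries, with Ass1 at 0 in all. Of the 10 tested, 8 had positive and 2 negative fold changes with a median of 0.43, and 0 had an unadjusted p under 0.05 in edgeR. The summed level was highest in VPA replicate 1, where Lrat was lowest. It was lowest in VPA replicate 4, where Cygb and Hgf were highest. This order rested on Alb, which stood at 5066 CPM in VPA replicate 1. Without Alb the sums were 2519 to 5570 CPM in CTR and 1857 to 3449 CPM in VPA libraries, with the highest in the CTR group. All 12 sinusoidal endothelial markers had a count, at a summed 381, 365 and 342 CPM in CTR and 163, 408, 149 and 288 CPM in VPA replicates 1 to 4. VPA replicates 1, 3 and 4 were thus below all CTR libraries and VPA replicate 2 above them. Of the 10 tested, 3 had positive and 7 negative fold changes with a median of −0.52. The most abundant, Ehd3, stood at 61.4 ± 17.6 CPM in CTR against 95.7 ± 27.9 CPM in VPA libraries, with overlapping groups (log2 fold change 0.64, adjusted p = 0.660 in edgeR). In Stab1, Cdh5 and Tek, named after their values were seen, every VPA library was below every CTR library (adjusted p = 0.744, 0.718 and 0.239 in edgeR). Over all tested genes this held for 7.41%. Stab1 had no count in VPA replicates 1 and 3, and Cdh5 had none in VPA replicates 1 and 2. Tek, at 13.0 to 16.4 CPM in CTR, had no count in any VPA library. Zeros in other well-counted genes are described above, and the origin of these zeros was not tested. Of 12 macrophage markers, 10 had a count, at 334 to 477 and 346 to 614 CPM, with Adgre1 and Marco at 0 in all libraries. Of 10 portal fibroblast markers, 8 had a count, at 59.3 to 111 and 45.0 to 95.5 CPM, with Gli1 and Clec3b at 0. Of 7 smooth muscle markers, 6 had a count, at 253 to 340 and 125 to 293 CPM, with Pln at 0. All 5 tested had negative fold changes with a median of −0.49, and 0 had an unadjusted p under 0.05 in edgeR. The 5 adipocyte markers, Adipoq, Plin1, Lep, Retn and Cidea, were at 0 in every library. All 8 cholangiocyte markers had a count, at 94.8 to 140 CPM in CTR and 127 to 181 CPM in VPA libraries. All 6 mesothelial markers had a count, at 270.2 to 984 and 193 to 482 CPM, nearly all from Krt8, a keratin that hepatocytes and bile duct cells also make. Without Krt8 the sums were 1.64 to 19.3 and 1.61 to 21.5 CPM, the highest with Wt1 at 19.6 CPM in VPA replicate 1. Of 5 lymphatic endothelial markers, 4 had a count, at 98.9 to 166 and 94.4 to 174 CPM, with Mmrn1 at 0. Most of this was Prox1, which hepatocytes also express, and without it the sums were 33.1 to 47.3 CPM in CTR and 16.6 to 31.4 CPM in VPA libraries.

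The genes with the profile most like that of Lrat and Reln were sought among 10622 tested genes with a mean of at least 5 CPM, by the mean absolute difference of gene-centred log2 CPM over the 7 libraries. For Lrat these were Trp53inp2 (a mean difference of 0.233), Abcb1a (0.260) and Ptrhd1 (0.271). Trp53inp2 stood at 19.7, 11.0 and 20.3 CPM in CTR and at 1.96, 17.5, 9.63 and 14.3 CPM in VPA slices, with the same low library as Lrat. For Reln they were Ninj1 (0.0744), Zdhhc9 (0.116) and Kif16b (0.123). Ninj1, which encodes an adhesion protein of the plasma membrane, stood at 65.8, 28.4 and 85.0 CPM in CTR and at 38.5, 52.9, 43.4 and 59.7 CPM in VPA slices. The libraries share depth and composition across genes, and the likeness is a description of these 7 libraries.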

How the data were processed

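RNA of mouse PCLS was read in 3 CTR and 4 VPA QuantSeq 3′ FWD libraries, which are primed at the poly(A) tail. Per the labels, the authors used STAR and StringTie on mm10 (GRCm38.p6 in their methods), and deposited raw counts per Ensembl gene, without normalization. The counting program and its use of strand are not given in the sources used here.

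Counts were tested in R 4.3.3 with edgeR 4.0.16 (filterByExpr, TMM, robust quasi-likelihood fit, condition as the only term) on 10876 genes. P-values were adjusted by Benjamini-Hochberg, and adjusted values under 0.05 were called. DESeq2 1.42.0, the tool of the authors, and limma 3.58.1 (voom) were alternatives, with other normalizations and filters, a fit without the robust option, blocks, and each library left out in turn. Simulated data with known changes were used to check the code. CPM are scaled to the counts of the tested genes times the TMM factor, and centred log2 CPM have a prior count of 2. Libraries of the same group differed beyond counting noise in each pairing (chi-square per degree of freedom 13.0 to 24.3) and were each taken as 1 replicate.

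Symbols were found for 55141 of the 55487 gene identifiers, with 346 unmatched. Positions are from GENCODE M21 on GRCm38 and promoter windows from RefSeq on GRCm38.p6. The text names all 9 members, from each related list the 3 most abundant genes, genes with an adjusted p under 0.05 and a few fixed by name, and for Lrat and Reln the 3 nearest profiles. Genes named beyond this rule are said in the text to be named after their values were seen. Results for some genes that this rule would name are not reported here. The members and lists were chosen with earlier results of these data known.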

Additional observations from a re-analysis of the deposited data

Results flagged for a closer look

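Groups of 4 libraries were screened for a library far from the rest over 30 measures, of which chance flags about 1 in 20, a share of 0.05. VPA replicate 2 held 3102450 counts on genes, against 1400887 to 1515954 in the other 3 VPA libraries. It is the library in which Hand2 had no count and Lrat and Lhx2 were highest of the group. The macrophage markers summed to 614 CPM in VPA replicate 4, against 346 to 377 CPM in the other VPA libraries. Cygb, Hgf, Ecm1, Reln and Hand2 were all highest of the VPA group in this library. The mesothelial markers summed to 482 CPM in VPA replicate 3, against 193 to 238 CPM in the other VPA libraries. Of this sum, 481 CPM were Krt8, a keratin of hepatocytes and bile duct cells too, and Msln, Wt1, Upk3b and Lrrn4 were at 0 there, so the value is one of Krt8 more than of mesothelium. No member was highest of the group in this library. In the CTR group, which has 3 libraries, no such screen was made.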

How the results depend on the processing

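No member tested was called higher or lower under any alternative. With at least 10 counts in every library, Reln, Hgf, Cygb and Ecm1 alone were tested. The number of genes called higher, 1 in the main test, was 39 with DESeq2, 2 with no filter, 17 with at least 10 counts in every library, 0 with the replicate block by slice culture, 0 with the block by replicate number, 397 at an unadjusted p and 0 to 1 with each library left out. The number called lower, 0, was 115, 8, 19, 0, 0, 503 and 0 to 2 in the same order. Pairing was weak, with correlations of 0.107, 0.0256 and 0.0546 between the libraries of cultures 71, 72 and 74 and −0.0539, 0.0546 and 0.107 for replicate numbers 1 to 3, so the libraries were treated as sharing a number only. Signs turned, all without a call, for Reln with limma-voom (0.0205), for Hgf with RLE (0.0015) and upper quartile normalization (0.0052) and with at least 10 counts in every library (0.0104), and for Lhx2 with the replicate number block (−0.36). With each library left out, the log2 fold change ranged from −0.58 to 0.0703 for Reln, −0.65 to 0.22 for Hgf, −0.0209 to 0.52 for Ecm1, −0.43 to 0.69 for Colec11 and −0.0414 to 0.95 for Lhx2. Lrat, Cygb and Hand2 had a negative sign in all fits run, Lrat from −1.51 to −0.81 and Cygb from −1.19 to −0.15. Hand2 and Colec11, which each have a library at 0, moved far: limma-voom gave −3.84 for Hand2 and 3.28 for Colec11, and the blocks by slice culture and replicate number gave −1.57 and −1.97 for Hand2 and 0.64 and 1.24 for Colec11. The cause of these shifts was not tested. The smallest library held 1400887 counts. Colec11 had 0 to 25 counts per library, and its 95% interval of the log2 fold change ran from −2.86 to 3.24.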
